A study of Mus musculus with 6 samples.

Results

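The bile acid and canalicular transporters of the hepatocyte, 10 genes in all, were followed in female liver of 2 inbred mouse strains. The genes were chosen by function, as uptake carriers of the blood-facing membrane (Slc10a1, Slco1a1, Slco1a4, Slco1b2), exporters of the canalicular membrane (Abcb11, Abcb4, Abcg5, Abcg8, Abcc2) and an exporter of the blood-facing membrane (Abcc3). All 10 had a probe set of their own, out of 18193 genes with one, and together they had 16 of the 45037 probe sets on the arrays. A probe set is a group of array probes read as a single value, and the gene was read through its brightest probe set unless stated.

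The mice were untreated females of 8 weeks, 3 of strain SM/J (SM) and 3 of strain NZB/BinJ (NZB). Both strains ate chow from weaning at 3 weeks, were fasted for 4 hours, and had the liver perfused with 50 mL of phosphate-buffered saline before it was frozen. Each mouse gave 1 array of total liver RNA, and mice of a strain are labelled as biological replicates, with no transgene and no treatment in either group. The only comparison is NZB against SM.

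Bile forms when the hepatocyte moves solutes from blood across the cell into the canaliculus, the narrow channel between neighbouring hepatocytes. Uptake carriers return bile acids from portal blood to the cell, and ATP-driven exporters then secrete bile acids, phospholipid, sterols and conjugates, with water following. The genes are controlled by nuclear receptors that sense bile acids, oxysterols and foreign compounds, and several of them differ between male and female mice.

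One array stood apart. Xist, a long RNA that coats and silences the inactive X, read 12.84, 7.32 and 12.91 in SM replicates 1, 2 and 3 and 12.66, 12.63 and 12.60 in the NZB mice. Probe sets of the Y-linked genes Kdm5d, Uty, Eif2s3y and Usp9y read at most 5.67 on any array, SM replicate 2 included, and that value is used here as the background level. Uty passed the test (0.25, SE 0.069, limma adjusted p = 0.0297) although none of its readings exceeded 4.88. Its call was lost in 9 of 13 alternatives (limma adjusted p = 0.0853 without SM replicate 2). Without SM replicate 3, NZB replicate 3 or NZB replicate 1, another Uty probe set was the brightest. The differences of 0.11, 0.11 and 0.16 in those fits are therefore not of the same readings. All 16 transporter probe sets were above the background level on every array. Differences and counts of calls without SM replicate 2 are given with the transporters and the gene lists. Array medians ran from 6.60 to 6.66. The labels and the table name no scan date, slide or other batch.

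Of the 10 transporters, 8 differed between the strains, mostly toward lower RNA in NZB. The bile salt exporter Abcb11, the phospholipid exporter Abcb4, the sterol exporters Abcg5 and Abcg8, the bile acid carrier Slc10a1 and the organic anion carrier Slco1a4 were lower in NZB. The organic anion carrier Slco1a1 and the conjugate exporter Abcc2 were higher, and Slco1b2 and Abcc3 did not pass the test. A gene is called here where its Benjamini-Hochberg adjusted p from limma, over all 18193 genes, was under 0.05. The calls were 2 higher and 6 lower of 10, against 21.0% of all genes called. Of all genes, 8.47% were called higher and 12.6% lower. Readings of the strains did not overlap for 8 of the 10 transporters, nor for 39.4% of all genes. The median difference, NZB minus SM in log2 expression, was -0.32 for the 10 transporters and 0.02 for all genes. Slco1a1 alone of the 10 was called with a difference of at least 2-fold, against 1.54% of all genes.

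**Figure D1:**
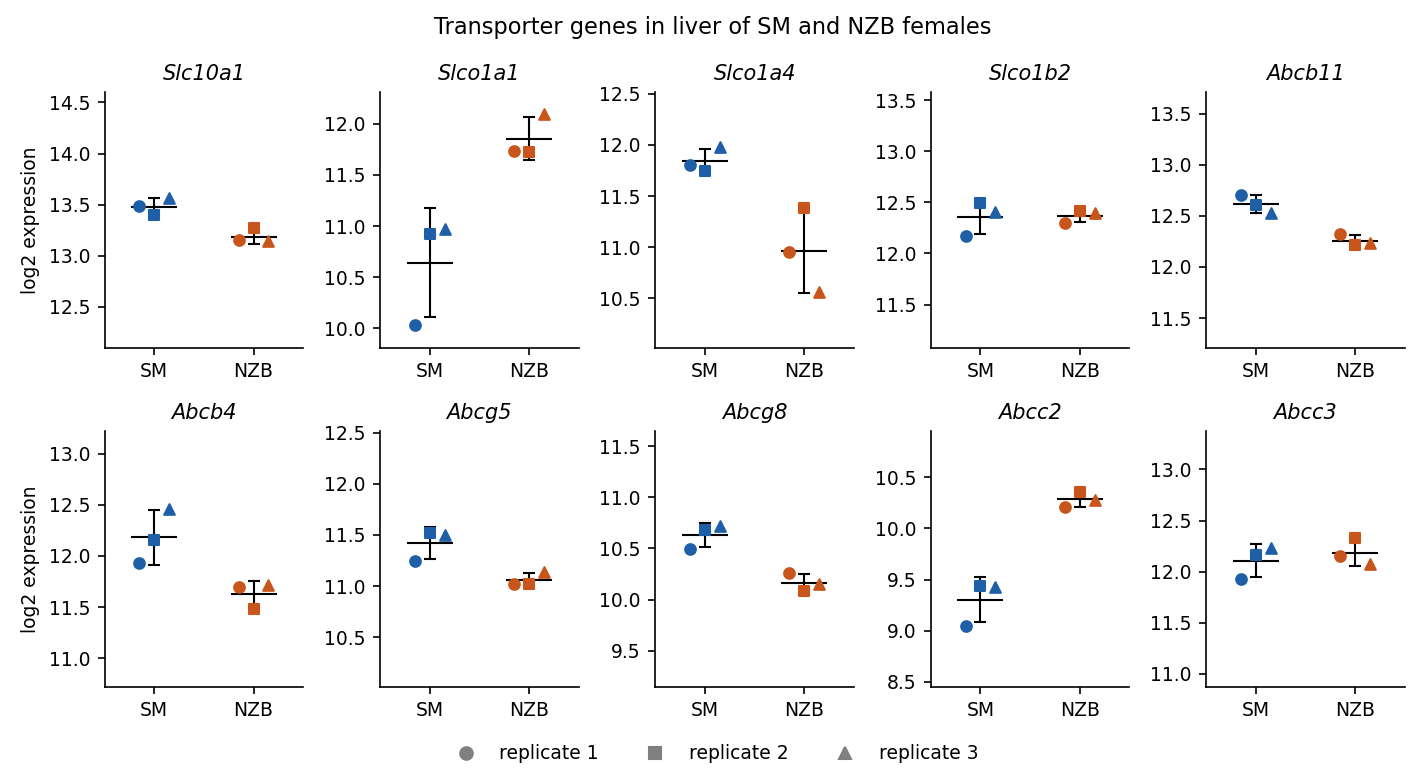
Log2 expression (vertical axis, each panel spanning the same range) of the 10 transporter genes in 3 SM and 3 NZB mice (horizontal axis); symbols are mice, bars the strain mean with its SD. The strains do not overlap for any gene but Slco1b2 and Abcc3, and the widest gaps are those of Abcc2 at 0.78 and Slco1a1 at 0.75.

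Uptake of conjugated bile acids from portal blood rests mainly on Slc10a1, the sodium-dependent taurocholate carrier. Its log2 expression was 13.48, 13.39 and 13.56 in SM replicates 1, 2 and 3 and 13.15, 13.27 and 13.14 in the NZB mice. Each NZB mouse was below each SM mouse, but the nearest pair lay only 0.12 apart. The difference was -0.29 (SE 0.070, limma adjusted p = 0.0168), or 1.22-fold lower in NZB. A further probe set of the gene differed by -0.26 (SE 0.074, limma adjusted p = 0.0494 over all probe sets). The call was lost without NZB replicate 1 (-0.27, limma adjusted p = 0.0557) and without NZB replicate 3 (-0.27, limma adjusted p = 0.0680), and it held without SM replicate 2 (-0.34).

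The organic anion carriers of the Slco family take up unconjugated bile acids, bilirubin and steroid conjugates without sodium. Slco1a1, whose RNA is known to be higher in male than in female mouse liver, read 10.03, 10.92 and 10.97 in the SM mice and 11.74, 11.73 and 12.09 in the NZB mice. SM replicate 1 was well below the other SM mice, and the NZB mice were all above the highest of them. The difference was 1.21 (SE 0.22, limma adjusted p = 0.00489), 2.32-fold higher in NZB. The further Slco1a1 probe set read 9.34, 10.07 and 9.93 in SM and 11.04, 10.75 and 11.14 in NZB. It differed by 1.20 (SE 0.18, limma adjusted p = 0.00257 over all probe sets), with SM replicate 1 again lowest. Without SM replicate 1 the difference of the gene was 0.91, and without SM replicate 2 it was 1.35, both still past the test.

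Slco1a4, a carrier of bile acids and cardiac glycosides known to be higher in female than in male mouse liver, went the other way. It read 11.81, 11.75 and 11.98 in SM and 10.95, 11.38 and 10.56 in NZB. Here the NZB mice were the more variable strain, with an SD of 0.41 against 0.12 in SM, yet none reached the lowest SM mouse. The difference was -0.88 (SE 0.17, limma adjusted p = 0.00655), 1.84-fold lower in NZB, and it was -0.68 without NZB replicate 3 and -1.09 without NZB replicate 2. The within-array log2 ratio of Slco1a1 to Slco1a4 was 2.09 higher in NZB (SD 0.51 in SM and 0.60 in NZB) with no overlap between strains. A two-sided exact permutation test of the ratio gave p = 0.1, the smallest that 3 mice against 3 allow (p = 0.2 adjusted over the 2 ratios computed, both chosen after the values were seen). Neither gene overlapped between strains and they went opposite ways, so the ratio could not overlap and its p was fixed. It adds nothing to the separate results of the genes. These relatives have similar sequences, and whether a probe set also reads a relative was not tested.

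Slco1b2, the mouse counterpart of the human liver OATP1B carriers, did not pass the test. Its brightest probe set read 12.17, 12.49 and 12.40 in SM and 12.30, 12.42 and 12.40 in NZB, so the NZB mice lay inside the SM range. The difference was 0.018 (SE 0.087, limma adjusted p = 0.912), with a 95% interval from -0.18 to 0.21. None of its 5 probe sets was called. The brightest carries a suffix that marks possible reading of several transcripts. A probe set without it, nearly as bright, read 12.32, 12.36 and 12.31 in SM and 12.23, 12.29 and 12.23 in NZB. Its strains did not overlap, but the nearest pair lay only 0.025 apart (-0.081, SE 0.058, limma adjusted p = 0.4 over all probe sets). A dim one read 5.77, 6.75 and 6.71 in SM and 6.95, 6.83 and 7.15 in NZB, where SM replicate 1 stood apart (0.56, SE 0.23, limma adjusted p = 0.139 over all probe sets). The sign of the brightest probe set's difference changed with the scaling and with the mouse left out, as listed under the processing. On chromosome 6 the RefSeq order of protein-coding genes runs Slco1b2, Gm5724, Slco1a4, Slco1a1. The order was read only from Slco1b2 to Slco1a1, so any relatives beyond these ends are not covered. Neighbours in this stretch therefore showed no call, a lower level and a higher level, with Gm5724 not analysed here.

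**Figure D2:**
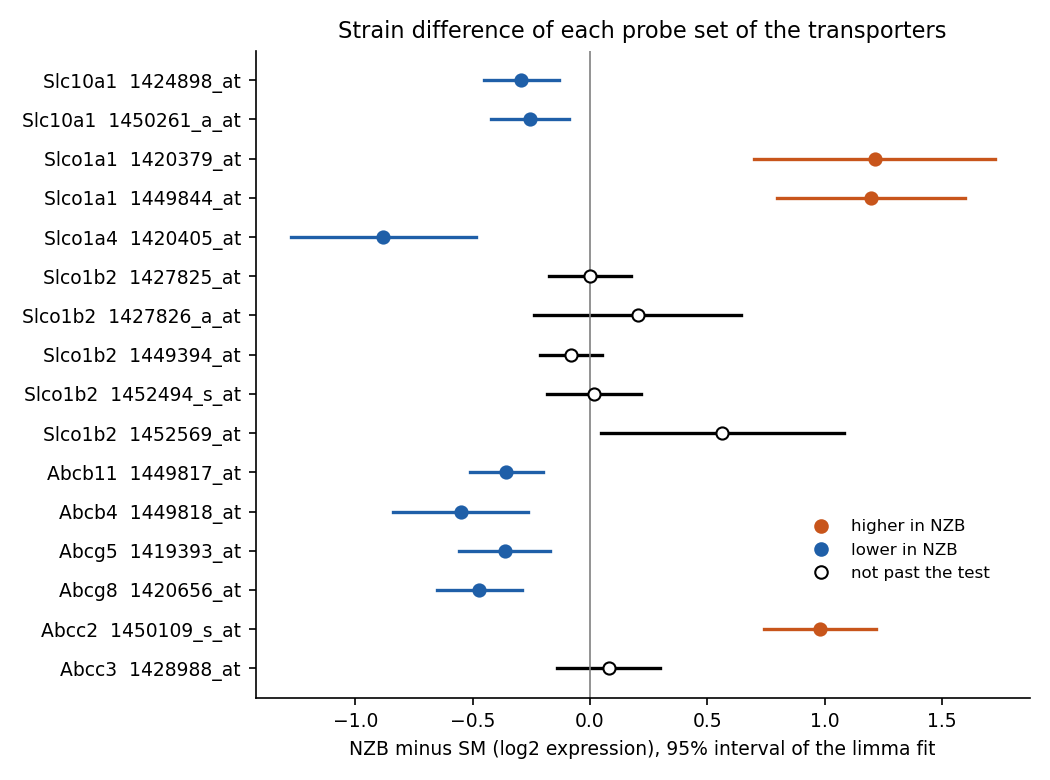
Difference NZB minus SM in log2 expression (horizontal axis) for each of the 16 transporter probe sets (rows), with the 95% interval of the limma fit over all probe sets as a line. Both probe sets of Slc10a1 and both of Slco1a1 lie on the same side of 0, and the 5 of Slco1b2 are open circles.

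Among the canalicular exporters, Abcb11 encodes the bile salt export pump, which drives bile acid secretion. It read 12.70, 12.61 and 12.53 in SM and 12.32, 12.22 and 12.24 in NZB. The spread within either strain was small, with SDs of 0.087 and 0.053, and the strains stood 0.21 apart at the nearest. The difference was -0.36 (SE 0.068, limma adjusted p = 0.00572), 1.28-fold lower in NZB. Its call held under each of the 14 alternatives tried, at limma adjusted p-values of 0.00271 to 0.0278.

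Abcb11 is the classic target of the bile acid receptor FXR, which binds an inverted repeat of the letters AGGTCA with 1 base between the copies. The 250 bases before the RefSeq start of each gene (GRCm38.p6) were searched on both strands for AGGNCANTGACCT, a form of that repeat with 1 letter of the repeat left free after the Abcb11 letters were seen. Of 32851 such windows in the table, 11 held it, or 0.0335%. Of the 11 windows of the transporters, 2 did, those of Abcb11 and Slco1b2. That of Abcb11 had to match, since the form was set after its letters were seen. The match to AGGTCA counted below lies inside each of these repeats. They are shown in the direction of transcription with the repeat in capitals, because one gene was lower in NZB and the other did not pass the test. Abcb11 lies at chr2:69342617-69342866 on the minus strand, with the repeat 51 to 63 bases before its start. Slco1b2 lies at chr6:141629268-141629517 on the plus strand, with the repeat 76 to 88 bases before.
Abcb11: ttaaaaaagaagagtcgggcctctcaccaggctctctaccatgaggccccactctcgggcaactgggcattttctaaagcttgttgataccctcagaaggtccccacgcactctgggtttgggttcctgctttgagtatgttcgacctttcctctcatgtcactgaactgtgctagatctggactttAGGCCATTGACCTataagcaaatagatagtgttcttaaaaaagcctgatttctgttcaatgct
Slco1b2: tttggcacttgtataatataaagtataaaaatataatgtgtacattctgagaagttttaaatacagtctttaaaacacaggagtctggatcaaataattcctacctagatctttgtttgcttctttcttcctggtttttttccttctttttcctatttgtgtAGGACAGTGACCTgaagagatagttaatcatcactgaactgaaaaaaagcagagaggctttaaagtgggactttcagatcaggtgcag
The matches are letters of the reference genome and say nothing of binding in these mice.

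Abcb4 moves phosphatidylcholine to the outer leaflet of the canalicular membrane, where it joins bile salts in micelles. It read 11.93, 12.16 and 12.46 in SM and 11.69, 11.48 and 11.71 in NZB. The SM mice were spread widely (SD 0.27), and all lay above the NZB mice. The difference was -0.55 (SE 0.12, limma adjusted p = 0.0134), 1.47-fold lower in NZB. It came to -0.41 without SM replicate 3 and to -0.68 without SM replicate 1. Without NZB replicate 2 it narrowly missed the threshold (-0.48, limma adjusted p = 0.0502).

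Abcg5 and Abcg8 encode the paired subunits of a single pump that secretes cholesterol and plant sterols into bile, and both were lower in NZB. Abcg5 read 11.24, 11.52 and 11.50 in SM and 11.02, 11.02 and 11.14 in NZB, with SM replicate 1 within 0.11 of the highest NZB mouse. The difference was -0.36 (SE 0.084, limma adjusted p = 0.0149), 1.29-fold lower in NZB. Abcg8 read 10.50, 10.68 and 10.72 in SM and 10.26, 10.08 and 10.15 in NZB, again with SM replicate 1 the lowest of its strain. Its difference was -0.47 (SE 0.079, limma adjusted p = 0.00311), 1.39-fold lower in NZB, and its call held under each of the 14 alternatives. That of Abcg5 was lost without SM replicate 2 (-0.32, limma adjusted p = 0.0646), NZB replicate 1 (-0.34, 0.0502) or NZB replicate 2 (-0.34, 0.0515). The within-array ratio of the pair differed between strains by 0.11 in log2 (SD 0.043 in SM and 0.12 in NZB), with overlap between strains (two-sided exact permutation p = 0.3, and 0.3 adjusted over the 2 ratios).

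These partner genes stand head to head on chromosome 17 and are transcribed away from each other. RefSeq places their starts at 84683011 for Abcg5 (minus strand) and 84683121 for Abcg8 (plus strand) in GRCm38.p6, with 109 bases between them at chr17:84683012-84683120. That stretch is shown in the direction of Abcg8, as the segment both genes share and because both were lower in NZB. Capitals mark TTATC, which is the GATA factor letters GATAA read on the other strand.
Between Abcg5 and Abcg8: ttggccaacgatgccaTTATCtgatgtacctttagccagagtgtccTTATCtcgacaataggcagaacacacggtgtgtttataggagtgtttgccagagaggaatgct
The stretch held 2 matches to GATAA, both on the Abcg5 strand. On either strand, 22.6% of all 32851 windows of 250 bases, which are longer than this stretch, held at least 1. So did 4 of the 11 transporter windows, those of Abcb4, Abcg5 and Abcg8, lower in NZB, and of Abcc2, higher in NZB. The windows of Abcg5 and Abcg8 share the 2 matches of the stretch shown, and Abcg5 has no others, so these windows are not separate cases.

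Abcc2 secretes bilirubin glucuronides, glutathione and other conjugates into bile, and of the 5 canalicular exporters among the 10 genes it alone was higher in NZB. It read 9.05, 9.43 and 9.43 in SM and 10.21, 10.36 and 10.28 in NZB. The strains stood 0.78 apart at the nearest, and the NZB mice were tightly grouped (SD 0.072). The difference was 0.98 (SE 0.10, limma adjusted p = 0.000274), 1.97-fold higher in NZB. It ranged from 0.85 without SM replicate 1 to 1.06 after quantile normalization and was called under each alternative that kept it. Its only probe set carries a suffix that marks possible reading of several transcripts, so it gave no value when such probe sets were left out.

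Abcc3 exports glucuronides and sulfated bile acids back to blood, a route used when canalicular export is impaired. It read 11.92, 12.16 and 12.23 in SM and 12.15, 12.33 and 12.08 in NZB, with the strains intermixed. The difference was 0.080 (SE 0.096, limma adjusted p = 0.598), and its 95% interval ran from -0.14 to 0.30. Without SM replicate 1 the difference was -0.010.

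The windows before Slco1a1 and Abcc2, the genes higher in NZB, are shown with the nuclear receptor letters AGGTCA in capitals on either strand (TGACCT on the other). Slco1a1 lies at chr6:141946963-141947212 on the minus strand and has 2 matches, 19 to 24 and 129 to 134 bases before its start. Abcc2 lies at chr19:43782058-43782307 on the plus strand and has 1 match, 44 to 49 bases before.
Slco1a1: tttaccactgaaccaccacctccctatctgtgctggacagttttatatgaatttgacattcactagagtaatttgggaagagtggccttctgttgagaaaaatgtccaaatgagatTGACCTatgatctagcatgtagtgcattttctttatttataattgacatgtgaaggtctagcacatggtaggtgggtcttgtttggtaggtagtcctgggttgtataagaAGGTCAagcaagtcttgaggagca
Abcc2: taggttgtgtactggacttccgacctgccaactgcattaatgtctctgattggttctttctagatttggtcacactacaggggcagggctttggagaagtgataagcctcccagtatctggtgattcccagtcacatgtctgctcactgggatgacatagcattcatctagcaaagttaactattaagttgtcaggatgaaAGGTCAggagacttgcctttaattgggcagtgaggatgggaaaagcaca
These letters were found in 5 of the 11 transporter windows (9 genes matched the table), those of Abcb11, Abcc2, Slc10a1, Slco1a1 and Slco1b2, and in 14.0% of all windows. These 5 genes include higher, lower and uncalled members. The letters GTTAAT, part of the site of the hepatocyte factor HNF1, were found in the Slco1b2 window alone among the 11 and in 6.43% of all windows.

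Within strains the mice also differed. SM replicate 1 was the lowest SM mouse for 7 of the 10 transporters and the highest for 1, while SM replicate 3 was the highest for 6. In NZB the lowest mouse was replicate 1 for 3 genes, replicate 2 for 4 and replicate 3 for 3. With SM replicate 2, the array of low Xist, left out, 7 of the 10 were called and only Abcg5 was lost. The differences were then -0.36 for Abcb11, -0.56 for Abcb4, -0.45 for Abcg8, 1.05 for Abcc2 and -0.93 for Slco1a4, close to those with all mice, and 0.11 for Abcc3 and 0.086 for Slco1b2. The called transporters numbered 6 without NZB replicate 1 or NZB replicate 2.

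**Figure D3:**
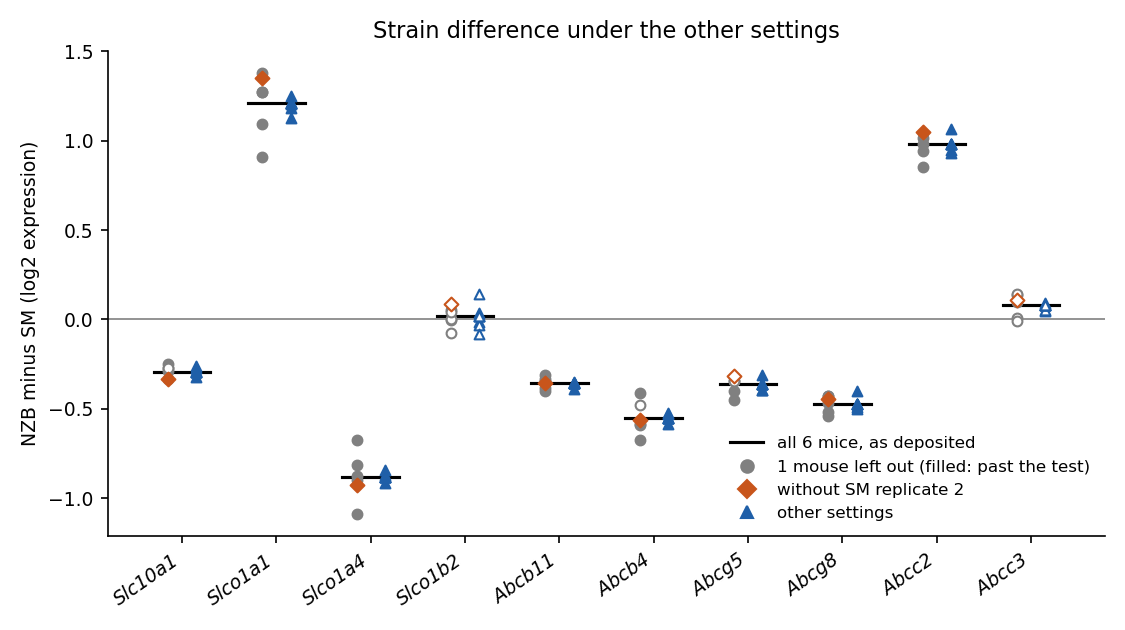
Difference NZB minus SM in log2 expression (vertical axis) of each transporter (horizontal axis) with all 6 mice (line) and under each alternative; filled symbols passed the limma test and open ones did not. Every called gene keeps its direction, from Slco1a1 at 0.91 to 1.38 down to Slco1a4 at -1.09 to -0.68 when 1 mouse was left out.

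With all mice, genes that sense bile acids and regulate the transporters were lower in NZB where they were called, though some alternatives gave higher ones. Of 20 measured, 7 were lower and none was higher by limma (9 and 2 at an unadjusted p under 0.05), with a median difference of -0.17 (21.0% of all genes were called, and their median was 0.02). Cebpb, a transcription factor of the acute phase and of liver metabolism, read 11.83, 12.35 and 12.29 in SM and 10.93, 10.73 and 10.78 in NZB (-1.34, SE 0.13, limma adjusted p = 0.000144). Nr1i2, the receptor PXR that responds to drugs and to toxic bile acids, read 10.07, 10.19 and 10.24 in SM and 8.73, 9.08 and 9.13 in NZB (-1.18, SE 0.10, limma adjusted p = 9.4e-05). Both were lower in each NZB mouse than in any SM mouse. The remaining lower genes were Ppargc1a, Ppara, Rxra, Hnf4a and Klb. The bile acid receptor gene Nr1h4 (FXR) differed by -0.16 (limma adjusted p = 0.132) and its target Nr0b2 (SHP) by 0.31 (limma adjusted p = 0.498), neither past the test. With probe sets averaged, 4 were lower and 2 higher, and 2 were higher after quantile normalization. Trended and robust variances, array weights and leaving out SM replicate 3 each gave 1 higher gene. Rxra differed by only -0.067 with probe sets averaged (limma adjusted p = 0.558). Hnf4a, Klb and Ppara also lost their calls in that setting (limma adjusted p = 0.136, 0.132 and 0.108). Without SM replicate 2, 6 were lower and none higher.

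Bile acid synthesis and conjugation, which supply the substrate of these pumps, had 7 lower and 2 higher genes among 20 measured, with a median of -0.089 (12.6% of all genes were lower and 8.47% higher). Cyp7a1, the rate-limiting enzyme of the classic pathway, read 10.94, 11.71 and 12.06 in SM and 10.06, 10.13 and 9.45 in NZB (-1.68, SE 0.26, limma adjusted p = 0.00226). Cyp39a1, an oxysterol hydroxylase, was at background in NZB and at least 37.7-fold lower there (limma adjusted p = 1.9e-08). Cyp7b1, the hydroxylase of the alternative pathway, was 3.15-fold higher (1.66, SE 0.18, limma adjusted p = 0.000354) and Hsd3b7 1.21-fold higher (0.28, SE 0.060, limma adjusted p = 0.0112). The conjugating enzyme gene Baat differed by -0.10 (limma adjusted p = 0.368). The higher genes numbered 4 without SM replicate 3, and also with array weights, and 1 to 3 in the other settings. Without SM replicate 2 the list had 2 higher and 5 lower.

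Other efflux and uptake transporters moved both ways. Of 26 measured, 9 were higher and 4 lower, with a median of 0.088 (8.47% of all genes were higher and 12.6% lower). With array medians aligned 8 were higher and 6 lower. Abcb1b, a drug efflux pump, was at background in SM (4.51 to 4.62) and read 6.71, 6.29 and 6.67 in NZB, at least 1.85-fold higher (limma adjusted p = 5.3e-06). Abcg2, a canalicular exporter of drugs and urate named here after its values were seen, read 9.33, 9.20 and 9.01 in SM and 9.79, 9.81 and 9.83 in NZB (0.63, SE 0.084, limma adjusted p = 0.000929). Slc10a2, the ileal bile acid carrier, was also called (1.29, SE 0.12, limma adjusted p = 0.000132), but all its readings, 3.97 to 5.59, were under the background level, so no fold is given. Abcc4, an exporter of bile acids and conjugates to blood, read 8.23, 7.59 and 7.71 in SM and 6.60, 7.37 and 6.32 in NZB (-1.08, SE 0.25, limma adjusted p = 0.0144). Its call was lost with trended and robust variances (0.0906), without NZB replicate 1 (0.0511) and without NZB replicate 3 (0.0563). The carnitine carrier Slc22a5 was 1.58-fold lower (-0.66, SE 0.17, limma adjusted p = 0.0218), a call lost in 6 alternatives at limma adjusted p-values of 0.0551 to 0.122. Its difference was -0.43 without SM replicate 3 and -0.41 with probe sets averaged. The subunits of the basolateral bile acid exporter, Slc51a and Slc51b, differed by -0.11 and 0.060 without passing the test. The lower genes of this list numbered 1 without NZB replicate 3 and 2 after quantile normalization or with trended and robust variances. Without SM replicate 2 the list had 8 higher and 3 lower.

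Genes that anchor pumps at the canaliculus or seal it had 2 higher and 4 lower among 23 measured, with a median of -0.036, a share called near the 21.0% of all genes. With probe sets averaged 5 were higher and 5 lower, where 3461 of all 18193 genes were called. The tight junction gene Cldn1 was 2.05-fold higher in NZB (1.03, SE 0.14, limma adjusted p = 0.00106; 0.65 with probe sets averaged), and Msn, a linker of membrane to actin found mainly outside hepatocytes, was 1.37-fold higher (0.45, SE 0.057, limma adjusted p = 0.000677). The junction scaffold Tjp1 (-0.33, SE 0.078, limma adjusted p = 0.0158) and the adaptor Slc9a3r1 (-0.32, SE 0.090, limma adjusted p = 0.0321) were lower, with Rdx and Mal2. Rdx encodes radixin, which holds Abcc2 at the canalicular membrane in mice. Both Tjp1 and Slc9a3r1 lost their calls without SM replicate 2 (limma adjusted p = 0.0662 and 0.0946). Slc9a3r1 and Rdx were called in 7 of 14 alternatives, Mal2 in 9 of 14 and Tjp1 in 11 of 13, and none of this list was lower without SM replicate 2 or without NZB replicate 3.

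Partners of sterol and phospholipid secretion had 4 lower and 1 higher among 13 measured, with a median of -0.0033 (12.6% of all genes were lower and 8.47% higher). Scarb1, the HDL receptor that brings cholesterol to the hepatocyte, was 2.14-fold lower in NZB (-1.09, SE 0.093, limma adjusted p = 7.6e-05). Npc1, which moves cholesterol out of lysosomes, was 1.75-fold lower (-0.81, SE 0.076, limma adjusted p = 0.000135). Pctp, the phosphatidylcholine transfer protein, and Pcyt1a, a regulatory enzyme of phosphatidylcholine synthesis, were also lower, but Pcyt1a differed by only -0.051 with probe sets averaged (limma adjusted p = 0.66). Pemt, which makes phosphatidylcholine by methylation, was 1.22-fold higher (0.29, SE 0.059, limma adjusted p = 0.0082). With probe sets averaged the list had 3 higher and 3 lower, and without SM replicate 2 it had 1 higher and 3 lower.

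**Figure D4:**
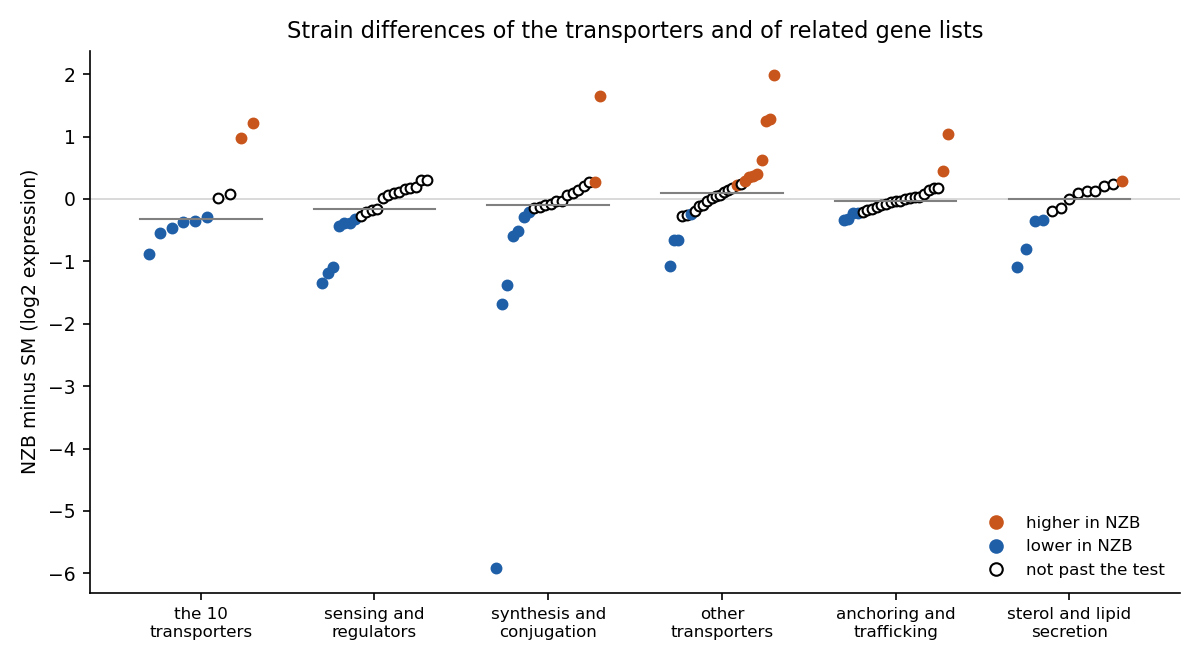
Difference NZB minus SM in log2 expression (vertical axis) for each gene of the 10 transporters and of 5 related lists (horizontal axis), ordered within each list, with grey lines at the medians. The regulators hold 7 called genes, all lower, while the other transporters hold 9 higher and 4 lower; the lowest point is Cyp39a1, which was at background in NZB, so its difference is known only as a bound.

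Slco1a1, Slco1a4 and Abcc3 belong to lists of genes that differ between the sexes in mouse liver, and these lists were drawn up with results of these data known. Of 12 measured male-biased genes, Slco1a1 among them, 11 were higher and 0 lower, with the same counts at an unadjusted limma p under 0.05, and the median was 1.02 (8.47% of all genes were higher and 12.6% lower). The others with the largest differences were the steroid dehydrogenase Hsd3b5 (4.31, SE 0.30, limma adjusted p = 2.5e-05) and the elongase Elovl3 (1.99, SE 0.23, limma adjusted p = 0.000483). Of 15 measured female-biased genes, Slco1a4 and Abcc3 among them, 9 were lower and 2 higher, with a median of -0.77. The lower genes included Cyp39a1 and the steroid hydroxylase Cyp17a1 (-5.47, SE 0.12, limma adjusted p = 1.9e-08). The higher ones were Hao2 (1.17, limma adjusted p = 0.0237) and Fmo2 (0.26, limma adjusted p = 0.0437), whose calls were lost in 6 and 7 of the 14 alternatives. Without SM replicate 2 they differed by 0.87 and 0.26 and were not called (limma adjusted p = 0.0772 and 0.107). Without that array 9 male-biased genes were higher and 9 female-biased genes lower. Slco1a1 and Slco1a4 followed the direction of their lists and Abcc3 was not called, and the part of sex-dependent control in these differences was not tested.

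The genes with profiles nearest to Slco1a1 over the 6 arrays were Ctse, Rnf125 and Cnot6l, at Euclidean distances of 0.46, 0.47 and 0.50 between centred log2 profiles. Those nearest to Slco1a4 were Ddah1, Nlrc5 and Azin1, at 0.40, 0.40 and 0.43. The search covered 16303 named genes, and the strain difference of each gene is part of this distance.

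Markers of liver cell types were read beside these results, where 8.47% of all genes were higher and 12.6% lower. The 10 hepatocyte markers averaged 13.62 to 13.73 over the SM arrays and 13.48 to 13.61 over the NZB arrays, with 2 lower in NZB (Tat and Tdo2) and none higher by limma (3 and 1 at an unadjusted p under 0.05). None of 7 measured cholangiocyte markers was called by limma (1 at an unadjusted p under 0.05, with means of 6.43 to 6.50 in SM and 6.42 to 6.45 in NZB), and Krt7 and Cftr were at background on all arrays. Of 10 Kupffer cell and macrophage markers 7 were higher and 1 lower, with means of 9.22 to 9.39 in SM and 9.48 to 9.73 in NZB. The higher ones numbered 4 without NZB replicate 2, 5 without SM replicate 1 or NZB replicate 3 and 6 without SM replicate 2. B and plasma cell markers had 3 of 7 higher, with a median difference of 0.19 and means of 6.60 to 6.67 in SM and 7.84 to 8.20 in NZB. Among them Jchain differed by 3.86 to 4.56 over the alternatives and Ighm by 0.94 to 4.54. Cd79a, Cd79b, Pax5 and Cd22 were called in 0 of 14 alternatives. T and NK cell markers had 4 of 7 higher (6.60 to 6.72 and 6.85 to 6.91). The higher T and NK cell markers numbered 2 of 7 without SM replicate 2 or NZB replicate 2, and Cd3g, among the 4, was at background on all arrays. Sinusoidal endothelial markers had 3 higher and 2 lower of 10 (8.90 to 8.97 and 8.98 to 9.09), and none of 10 stellate cell markers was called by limma (5 at an unadjusted p under 0.05, means of 8.22 to 8.54 and 8.32 to 8.53). Erythroid markers had 1 lower of 4 (6.37 to 6.53 and 6.11 to 6.33). Enterocyte markers had 2 higher of 7 (6.54 to 6.76 and 6.77 to 6.91), with Fabp6, Vil1, Lct and Slc10a2 at background on all arrays. Without SM replicate 2, hepatocyte markers had 1 lower, cholangiocyte markers 1 lower, endothelial markers 2 higher and 2 lower, and enterocyte markers 1 higher. Without SM replicate 1, 3 stellate cell markers were higher, and without NZB replicate 1, 1 was lower. The part of these cells in the transporter differences was not tested. In whole liver, fewer hepatocytes and less RNA per hepatocyte cannot be told apart.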

How the data were processed

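Liver RNA of 6 mice was measured with 1 single-color array per mouse. The deposited values are log2 expression from RMA, per the submitters' processing notes, which corrects background, normalizes arrays and summarizes probe sets; its version is not given in the sources used here. That the scale is log2 was read from the largest value, 14.9, under the limit of 16 for a 16-bit scanner. RMA compresses differences near background and scanners saturate at the top, so differences there can be understated. Strain sequence variants under single probes were not analysed here.

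The platform annotation gave 34945 of the 45037 probe sets a single gene, left 9160 without one and named several for 932; 34741 were renamed by Entrez ID through RefSeq (GRCm38.p6). A gene was read through its brightest probe set over the arrays used. The fit used limma 3.58.1 under R 4.3.3 (lmFit, eBayes, two-sided, Benjamini-Hochberg over 18193 genes, or over all probe sets where stated), tested on simulated data. Ratios used an exact permutation test (SciPy 1.17.1). With 3 arrays per strain, their number limits the precision.

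The transporters and gene lists were chosen with earlier results of these data known. Named genes are the 10 transporters, up to 2 per list and direction with the largest called differences, Xist and the Y-linked genes, and the 3 nearest profiles of the most changed transporter in each direction. Others were named after their values were seen. List members not measured through their own probe set were not analysed here. Promoter letters are RefSeq's. 14 alternatives were tried: 2 scalings, trended and robust variances, array weights, averaged probe sets, without marked (_s_at, _x_at, _a_at) or dim probe sets, the replicate block, and each mouse left out.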

Additional observations from a re-analysis of the deposited data

How the results depend on the processing

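Called genes numbered 3827 with all mice, 2371 to 3847 with 1 mouse left out (2371 without SM replicate 2, 2398 without NZB replicate 3) and 3220 to 4791 in the other settings. The share of calls that were higher was 40.3% as deposited, 30.3% with array medians aligned and 47.5% after quantile normalization, and no scaling moved the median of all genes by over 0.1. Called transporters numbered 8 with all mice, 6 to 8 with 1 mouse left out and 7 or 8 otherwise. Their called probe sets, of 16, numbered 10, 7 or 8, and 8 to 10 in the same order. Of all 45037 probe sets, 14.8% were called with all mice. No called transporter changed direction in the alternatives that kept it. Slco1b2, not called, changed sign with array medians aligned (-0.015) and with array weights (-0.033), and ran from -0.075 to 0.086 with 1 mouse left out. Without marked probe sets it was read through another probe set (-0.081). Abcc3, also not called, ran from -0.010 to 0.14.

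With the replicate number as a block, 3436 genes, 8 transporters and 8 of their probe sets were called, and Uty lost its call. Deviations of same-numbered mice correlated at 0.040, -0.072 and 0.050 over genes, and SM replicate 2 correlated best with NZB replicate 1 (0.085), so the numbers were not taken as pairs. Among named genes of the lists, 40 of 315 fits under alternatives lost the call and none changed direction. Signal over background limited Slc10a2, Cyp39a1, Abcb1b, Uty and Cd3g.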
